A study of Mus musculus with 28 samples.

Results

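H3K27ac, the acetylation of lysine 27 of histone H3 that marks active promoters and enhancers, was compared between NMuMG cells exposed to TGF-β for 4h while MEK was blocked (ERKi 4h) and untreated cells (0h). The comparison rests on 6 of the 15 H3K27ac ChIP-seq libraries of a mouse series of 28 samples, chosen by their labels as 3 libraries of ERKi 4h and 3 of 0h. NMuMG is an untransformed epithelial line from normal mouse mammary gland that undergoes an epithelial to mesenchymal transition (EMT) under TGF-β. The ERKi 4h cells received the MEK inhibitor UO126 at 25 µM, starting 30 min before 2 ng/ml TGF-β, and the 0h cells are labelled untreated. A further 3 libraries, TGF-β for 4h with the solvent DMSO (4h), had the same TGF-β without the inhibitor and were used to measure the effect of the inhibitor itself. No group received the inhibitor without TGF-β, so that effect was measured only in the presence of TGF-β. No 4h group was without TGF-β either. Against 0h, therefore, TGF-β, time in culture and any effect of the solvent cannot be told apart. The 10 RNA-seq and 3 input samples were not analysed here, and p-values measure the spread between libraries, since nothing in the labels says that replicates came from separate cultures.

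TGF-β binds the receptor pair Tgfbr1 and Tgfbr2 and acts mainly through the SMAD transcription factors, which enter the nucleus and raise their own inhibitors along with other targets. It also activates kinase cascades, among them RAF, MEK and ERK. ERK phosphorylates transcription factors of the ETS and AP-1 families, and it induces feedback inhibitors such as the Dusp phosphatases and the Sprouty and Spred proteins. UO126 inhibits MEK, the kinase that activates ERK, and leaves the SMAD branch without its own block.

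The measure was the pileup, the number of fragments stacked at the summit of a peak, made comparable between libraries by quantile normalisation. Overlapping peaks were merged into 89050 regions, of which 63439 held a peak in at least 1 of the 6 libraries, and 30314 held one in all 9 libraries of 0h, 4h and ERKi 4h and were tested. The 6 libraries held between 52221 and 64815 peaks with median summit pileups of 38 to 57 fragments. Read totals are not given in the peak lists, so the depth is unknown and no counting interval was made. Normalised pileups of the tested regions correlated between replicates with r of 0.908 to 0.935 at 0h and 0.880 to 0.946 at ERKi 4h, and between the groups with r of 0.791 to 0.916, as a description across regions. The promoters of the epithelial genes Cdh1, Krt8 and Krt18 held a peak in all 6 libraries, whereas those of Epcam and Cldn7 held none. Promoters of the 5 blood and 5 endothelial markers held no peak in any of the 6, and among the 5 fibroblast markers Pdgfra had a peak in 1 library, of 0h, and the other 4 had none.

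The regions with the largest differences are mostly distal elements, and several had an AP-1 motif within 500 bp of their summit, as did 49.5% of all tested regions outside promoters. The sequences shown are 201 bases centred on the AP-1 match nearest to the summit, for the 3 higher and the 2 lower named genes with the largest differences that had such a match within 500 bp, and for the strongest region of the ERK phosphatase gene Dusp6. Capitals mark the motif TGANTCA, and bases are those of the mm9 assembly. The tested regions of Sox10, Tnpo1 and Pmepa1 are higher under ERKi 4h, whereas those of Lrrk1, Gm10495 and Dusp6 are lower. The Lrrk1 stretch lies wholly outside its tested region (chr7:73454346-73455865). The marked Sox10 motifs lie past the end of theirs (chr15:79006068-79007466), so those bases are flanking sequence.
Sox10, chr15:79007392-79007592, plus strand: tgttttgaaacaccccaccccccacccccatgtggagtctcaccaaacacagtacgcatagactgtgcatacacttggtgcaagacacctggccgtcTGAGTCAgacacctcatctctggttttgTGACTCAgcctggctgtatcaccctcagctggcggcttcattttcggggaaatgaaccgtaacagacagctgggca
Tnpo1, chr13:99724953-99725153, plus strand: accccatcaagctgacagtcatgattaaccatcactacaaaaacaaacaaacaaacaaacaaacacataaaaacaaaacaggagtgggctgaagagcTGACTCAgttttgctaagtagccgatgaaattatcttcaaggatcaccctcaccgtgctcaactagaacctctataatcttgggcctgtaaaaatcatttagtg
Pmepa1, chr2:173146820-173147020, plus strand: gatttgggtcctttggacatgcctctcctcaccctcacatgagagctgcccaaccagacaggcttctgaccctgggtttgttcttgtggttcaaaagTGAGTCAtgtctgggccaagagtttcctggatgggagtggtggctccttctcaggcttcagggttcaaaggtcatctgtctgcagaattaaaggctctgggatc
Lrrk1, chr7:73454079-73454279, plus strand: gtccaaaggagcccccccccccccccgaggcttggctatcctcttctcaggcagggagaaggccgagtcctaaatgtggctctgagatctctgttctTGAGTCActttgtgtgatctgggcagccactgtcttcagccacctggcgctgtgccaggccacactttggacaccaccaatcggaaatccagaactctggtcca
Gm10495, chr17:66689978-66690178, plus strand: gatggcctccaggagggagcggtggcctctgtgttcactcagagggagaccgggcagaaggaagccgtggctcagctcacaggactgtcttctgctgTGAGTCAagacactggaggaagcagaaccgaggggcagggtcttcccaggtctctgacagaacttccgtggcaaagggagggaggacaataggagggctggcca
Dusp6, chr10:98665050-98665250, plus strand: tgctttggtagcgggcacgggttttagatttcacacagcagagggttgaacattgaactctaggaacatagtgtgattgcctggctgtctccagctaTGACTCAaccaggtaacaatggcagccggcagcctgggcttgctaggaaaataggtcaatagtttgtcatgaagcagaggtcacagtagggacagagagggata

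With MEK blocked, 1255 of the 30314 regions gained H3K27ac at 4h over 0h and 832 lost it at an adjusted p below 0.05 (limma, Benjamini-Hochberg), that is 4.14% and 2.74% of those tested. Higher regions went from a median normalised pileup of 35.9 at 0h to 81.5 at ERKi 4h, and lower regions from 71.8 to 32.0. The same regions stood at a median of 79.0 and 51.5 in the 4h libraries. Those libraries entered the normalisation, the requirement of a peak and the estimate of the spread, but not the difference tested. The counts were 957 higher and 635 lower without 4h replicate 1, and 1382 and 918 without 4h replicate 3. With the replicate number as a block, 4351 regions (14.4%) were higher and 4282 (14.1%) lower. At 4h with DMSO, against the same 0h libraries, 1129 regions (3.72%) were higher and 266 (0.877%) lower, or 3845 (12.7%) and 3107 (10.2%) with the block, and 462 and 42 without 4h replicate 1. Leaving out 1 library moved the higher count by more than 1.5 times for 0h replicate 1 (700), 0h replicate 2 (706), ERKi 4h replicate 1 (601) and ERKi 4h replicate 3 (687), and the lower count for 0h replicates 1 (526), 2 (484) and 3 (322) and ERKi 4h replicate 1 (269). By fold enrichment, which divides the pileup by each library's local background, 35 regions were higher and 26 lower. The local background itself was higher at ERKi 4h in 1254 of the 1255 higher regions (median log2 difference 0.84) and lower in 830 of the 832 lower regions (median -0.77), against a median of -0.03 over all regions.

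**Figure D1:**
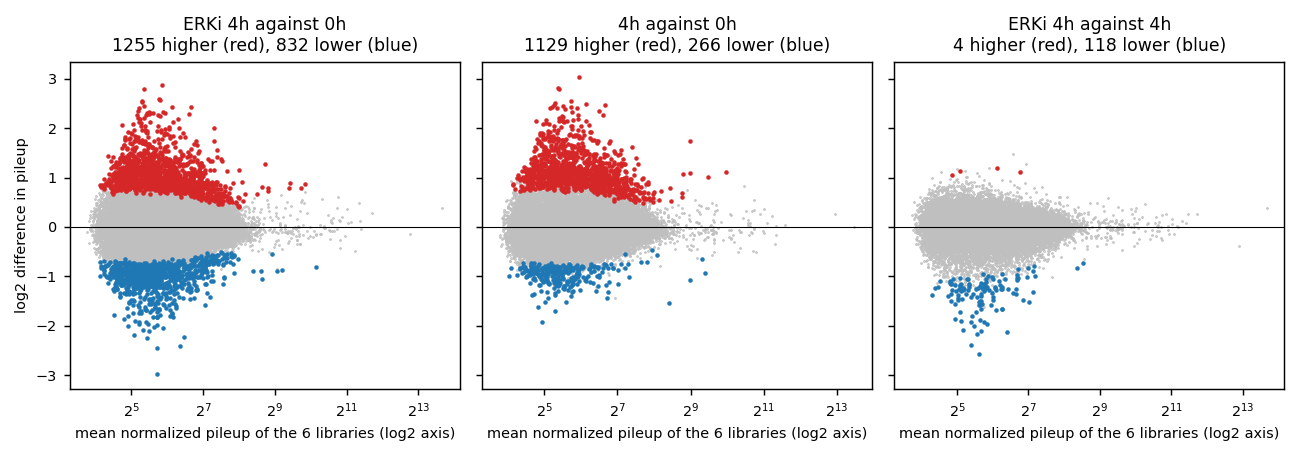
The log2 difference in normalised pileup (vertical axis) against the mean normalised pileup of the 6 libraries compared (horizontal axis, log2 scale), with each point a region and coloured points at an adjusted p below 0.05. ERKi 4h differed from 0h in both directions (1255 higher, 832 lower), 4h differed from 0h mainly upwards (1129 higher, 266 lower), and ERKi 4h differed from 4h downwards (4 higher, 118 lower), all without the replicate block. With it the splits were more even, at 4351 and 4282, 3845 and 3107, and 861 and 1573.

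The regions that changed lay at promoters less often than all tested regions did. With the replicate block, 743 of the 4351 higher and 1129 of the 4282 lower regions were promoter regions. The shares that follow are those without the block. A promoter, from 1000 bp before to 100 bp after a protein-coding start site, was overlapped by 39.2% of the tested regions but by 112 (8.92%) of the higher and 61 (7.33%) of the lower regions. Introns outside promoters held 47.9% of the higher and 37.6% of the lower regions, compared with 26.5% of all tested. Intergenic summits made up 40.9% of the higher, 52.5% of the lower and 32.0% of all tested regions. Outside promoters, the median distance to the nearest protein-coding start site was 25313 bp for the higher, 37604 bp for the lower and 24848 bp for all tested regions. The called regions had nearest start sites of 842 genes (higher) and 509 genes (lower) within 100 kb.

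The 8 largest increases were 5.40-fold or more and were present with and without the inhibitor. The intronic Arid3a region (chr10:79398697-79399920), in a gene for an AT-rich DNA-binding protein, had normalised pileups of 18.9, 24.6 and 21.5 at 0h and 139, 142 and 201 at ERKi 4h. Its log2 difference was 2.88 (SE 0.21, adjusted p = 1.90e-05), and the 4h libraries stood at 182, 159 and 195. All 3 ERKi 4h libraries exceeded every 0h library, which the choice of the largest called differences makes likely here and below. A region 12230 bp from the start site of Sox10, a neural crest transcription factor, had 11.9, 17.8 and 17.6 fragments at 0h and 110, 81.3 and 139 at ERKi 4h (log2 2.79, SE 0.25, adjusted p = 6.81e-05). Near Tnpo1, a nuclear import receptor gene, the level went from 28.3, 21.9 and 17.6 to 147, 106 and 153 (log2 2.59, SE 0.23). The intronic Rassf8 region went from 21.2, 27.2 and 20.4 to 123, 134 and 151 (log2 2.57, SE 0.19). In each of these, too, the lowest ERKi 4h library was above the highest 0h library. Tlr2, a receptor of innate immunity, had a region 3331 bp from its start site at 17.5, 15.0 and 16.5 fragments at 0h and 106, 70.5 and 114 at ERKi 4h (log2 2.54). The only promoter among the 8 largest increases was that of Coro6, of the coronin family of actin-binding proteins, with 20.4, 17.8 and 15.0 at 0h and 95.6, 79.1 and 117 at ERKi 4h (log2 2.45). The eighth, chr7:122350133-122351701, had no protein-coding start site within 100 kb and a log2 difference of 2.43. In the direct comparison of ERKi 4h with 4h, these 8 regions had log2 differences between -0.22 and 0.15, none past the threshold.

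**Figure D2:**
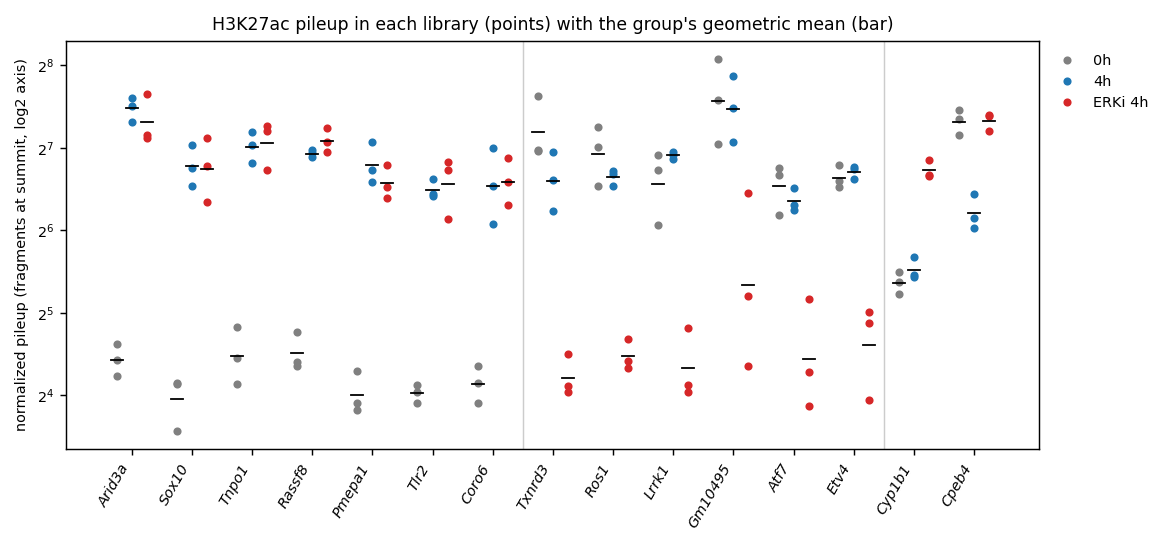
Normalised pileup (fragments at the summit, log2 axis) of each library for named regions, with grey, blue and red points for 0h, 4h and ERKi 4h and a bar at each group's geometric mean. In the left block (Arid3a to Coro6) the 4h and ERKi 4h libraries lie together above 0h, in the middle block (Txnrd3 to Etv4) ERKi 4h lies below both other groups, and Cyp1b1 and Cpeb4 at the right are higher under ERKi 4h than at 4h.

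Among genes of the TGF-β and SMAD branch, 10 of 22 had a region that gained H3K27ac with MEK blocked and 12 had none. Of all 12247 genes with a tested region, 842 had a higher one, and a gene with more tested regions has more chances of a call. Of 152 regions nearest to 22 of the 25 listed targets, 21 (13.8%) were higher and 3 (1.97%) lower at ERKi 4h than at 0h. Among all regions 4.14% were higher and 2.74% lower. The median log2 difference of the list was 0.14 against -0.02 over all regions. With the replicate block the counts were 54 (35.5%, against 14.4% of all regions) and 18 (11.8%, against 14.1%), and without ERKi 4h replicate 1 they were 11 (7.24%, against 1.98%) and 1. Pmepa1 alone gave 7 of the 21. Against 4h, 1 region of the list was lower and 0 were higher (limma, 14 and 0 at an unadjusted p below 0.05), and 16 were lower and 0 higher with the block. Among all regions 0.389% were lower and 0.0132% higher than at 4h, or 5.19% and 2.84% with the block. Pmepa1, whose product inhibits the TGF-β receptor pathway, had all 7 of its tested regions higher, by 0.62 to 2.56 on the log2 scale. Its strongest region (chr2:173146144-173147978, 44631 bp upstream of the start site) had 14.2, 15.0 and 19.6 fragments at 0h, 106, 95.6 and 134 at 4h and 91.7, 84.1 and 111 at ERKi 4h. That is a 5.90-fold increase with the inhibitor (log2 2.56, SE 0.22, adjusted p = 6.42e-05). The SMAD inhibitor gene Smad7 had 4 of 15 regions higher. The promoter of Tgfbr1, the type I receptor, went from 75.5, 55.0 and 62.3 at 0h to 120, 126 and 121 at ERKi 4h (log2 0.94, SE 0.18, adjusted p = 0.00653). A region of Itgb6, an integrin subunit that activates latent TGF-β, went from 93.4, 102 and 141 to 197, 186 and 238 (log2 0.90, adjusted p = 0.00845). By fold enrichment both of these turned to -0.11 (Tgfbr1) and -0.21 (Itgb6). Against this direction, 2 of 5 regions of Tgfbr2, the type II receptor, and 1 of 16 of Smad3 were lower. The Tgfbr2 region at chr9:116127221-116127845 had 99.5, 111 and 138 at 0h and 56.9, 50.2 and 60.5 at ERKi 4h (log2 -1.05, SE 0.20), with 75.2, 77.7 and 94.5 at 4h between them.

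AP-1 and immediate-early genes and the transcription factors of EMT also had higher regions more often than all regions did. Of 101 regions of the first list 11 (10.9%) were higher and 2 (1.98%) lower, and of 69 regions of the second 11 (15.9%) were higher and 0 lower. Among all regions 4.14% were higher and 2.74% lower. With the replicate block 24 (23.8%) of the first were higher and 10 lower, and 23 (33.3%) of the second were higher and 2 lower, against 14.4% and 14.1% of all regions. Without ERKi 4h replicate 1 the first list had 3 higher (2.97%) and 1 lower and the second 6 higher (8.70%) and 0 lower, against 1.98% and 0.887% of all regions. At an unadjusted p below 0.05, 2 of the 69 were lower. At 4h with DMSO, 9 regions of the first list were higher than at 0h and 0 lower, and 9 and 1 of the second (limma). Of all regions 3.72% were higher and 0.877% lower at 4h. Fos, a subunit of AP-1, had a region 19154 bp upstream at 44.9, 51.3 and 42.8 fragments at 0h and 116, 85.3 and 128 at ERKi 4h (log2 1.23, SE 0.23, adjusted p = 0.00589). Fosb gained over a region at 30.6, 45.0 and 29.6 and then 72.6, 66.7 and 89.0 (log2 1.13). A region near Klf6, a zinc-finger factor, went from 82.4, 67.9 and 78.1 to 158, 156 and 165 (log2 1.07, SE 0.16). The promoter of the stress-response factor Atf3 went from 112, 123 and 118 to 185, 183 and 188 (log2 0.65, SE 0.14). The 4h libraries of these regions stood at 121, 83.2 and 138 (Fos) and 67.7, 79.0 and 63.1 (Fosb). Those of the other named regions stood at 180, 142 and 186 (Klf6) and 147, 170 and 181 (Atf3). In all of these regions the 3 ERKi 4h libraries lay above every 0h library, which a choice by lowest p makes likely. Fosl1, an AP-1 subunit known as an ERK output, had 1 of 2 regions lower instead, and so did Ier5 with 1 of 12.

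Among the EMT factors, Snai1, a repressor of E-cadherin, had 4 of 5 regions higher. The strongest went from 55.7, 48.8 and 48.1 at 0h to 117, 92.7 and 130 at ERKi 4h (log2 1.14, SE 0.19, adjusted p = 0.00279). The region upstream of Ets1, an ETS factor, rose 3.90-fold, from 29.0, 19.2 and 16.5 to 96.6, 60.5 and 93.4 (log2 1.96, SE 0.27). An intronic region of Runx1, a Runt-family factor, went from 17.5, 17.8 and 19.6 to 49.3, 69.4 and 57.5 (log2 1.67, SE 0.20). Sox4, an SRY-box factor, had 53.0, 71.4 and 65.6 fragments and then 117, 115 and 142 in 1 region (log2 0.98). The 4h libraries of these regions stood at 112, 102 and 112 (Snai1) and 111, 75.2 and 114 (Ets1). They were at 39.8, 41.2 and 46.6 for Runx1 and at 155, 130 and 155 for Sox4. The ERKi 4h and 0h groups did not overlap in any of these 4, which a choice by lowest p makes likely. Measured as fold enrichment the Snai1 and Sox4 differences were -0.24 and -0.12, with no call in either direction.

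**Figure D3:**
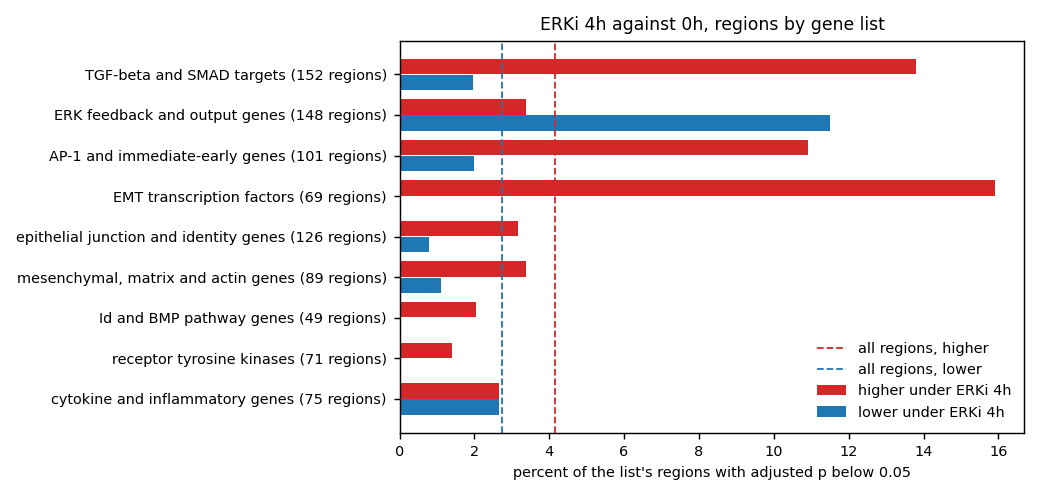
The percent of each gene list's tested regions that were higher (red) or lower (blue) at ERKi 4h than at 0h at an adjusted p below 0.05, with dashed lines at the 4.14% and 2.74% of all 30314 regions. The SMAD, AP-1 and EMT factor lists exceed the line for higher regions, and the ERK list, with 11.5% lower, exceeds the line for lower regions.

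Some genes had several higher regions, although the 1255 higher regions were spread over 842 genes within 100 kb. Nfatc2, a calcium-regulated transcription factor gene, had 11 of its 13 tested regions higher by 0.88 to 1.83 on the log2 scale. The strongest, in an intron (chr2:168356902-168357601), had 57.1, 40.0 and 35.6 fragments at 0h and 182, 94.2 and 214 at ERKi 4h. Pde4d, a cAMP phosphodiesterase gene, had 5 of 22 regions higher, and its strongest went from 50.2, 40.0 and 49.3 to 98.6, 121 and 144. Rreb1, a RAS-responsive zinc-finger factor that acts with SMADs, had 5 of 10 higher, by 0.73 to 0.93. Cux1, a homeobox factor gene, had 4 of 14 higher. The median difference between ERKi 4h and 4h over these called regions was 0.07 for Nfatc2, -0.05 for Pmepa1, -0.07 for Pde4d, 0.31 for Rreb1 and 0.12 for Cux1, and none of them passed the test of that difference without the block. With it 1 region of Cux1 was higher than at 4h (log2 0.60, adjusted p = 0.0188).

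Among the largest decreases under MEK block, the 4h libraries lay near 0h in some regions and between 0h and ERKi 4h in others. The intronic Txnrd3 region (chr6:89599026-89600106), in a thioredoxin reductase gene, had 126, 125 and 198 fragments at 0h, 97.9, 75.2 and 124 at 4h and 16.4, 22.6 and 17.3 at ERKi 4h. Its log2 difference from 0h was -2.97 (SE 0.25, adjusted p = 6.42e-05), a 7.85-fold decrease. The intron of Ros1, a receptor tyrosine kinase gene, had 129, 92.5 and 152 at 0h, 105, 92.5 and 103 at 4h and 21.4, 20.2 and 25.7 at ERKi 4h (log2 -2.45, SE 0.22). In both, every ERKi 4h library was below every library of 0h and 4h. Against 0h, the choice of the largest decreases makes this likely. It is likely against 4h too, since both regions are also among the largest called decreases there, with the same ERKi 4h libraries. An intronic region of the kinase gene Lrrk1 had 66.7, 120 and 106 at 0h, 116, 120 and 124 at 4h and 17.5, 28.1 and 16.4 at ERKi 4h (log2 -2.24, SE 0.26). The intronic Atf7 region, in the gene of an AP-1-related factor, had 72.8, 102 and 108 at 0h, 76.2, 91.1 and 79.2 at 4h and 19.4, 35.8 and 14.6 at ERKi 4h (log2 -2.10, SE 0.29). Near Gm10495 the levels were 132, 191 and 269 at 0h and 20.4, 87.8 and 37.0 at ERKi 4h (log2 -2.23, SE 0.41), and the spread was wider than in the other regions. Of the remaining 3 of the 8 largest decreases, none had a protein-coding start site within 100 kb. Those at chr16:25425036-25426501, chr2:126135095-126137731 and chr10:121712214-121713312 differed by -2.41, -2.19 and -2.08. In these 3 the 4h libraries were lower than 0h too, by -0.84 (adjusted p = 0.0762, or 1.30e-06 with the block), -1.10 (adjusted p = 0.00506) and -0.96 (adjusted p = 0.0327). Txnrd3 differed by -0.59 between 4h and 0h (adjusted p = 0.258, or 0.00695 with the block). By fold enrichment the Ros1 and Gm10495 differences were 0.04 and 0.38, with no call.

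Feedback inhibitors and outputs of ERK were the list with the largest share of lower regions. Of 148 regions nearest to 25 of the 27 listed genes, 17 (11.5%) were lower and 5 (3.38%) higher at ERKi 4h than at 0h. Among all regions 2.74% were lower and 4.14% higher. The median log2 difference of the list was -0.16. With the replicate block 56 (37.8%) of the list were lower and 16 (10.8%) higher, against 14.1% and 14.4% of all regions. Leaving out ERKi 4h replicate 1, 4 were lower and 4 higher (2.70% each, against 0.887% and 1.98% of all regions). At 4h with DMSO, 0 of the 148 were lower than at 0h and 6 higher (limma), with 5 lower at an unadjusted p below 0.05. With the block 11 of the 148 were lower and 20 higher. Among all regions 0.877% were lower and 3.72% higher at 4h, or 10.2% and 12.7% with the block. Etv4, an ETS factor induced by ERK, lost H3K27ac at its promoter (chr11:101645182-101646664), from 92.0, 97.0 and 111 at 0h to 29.4, 32.1 and 15.4 at ERKi 4h, whereas the 4h libraries stood at 107, 109 and 98.1. The decrease was 4.09-fold (log2 -2.03, SE 0.26, adjusted p = 6.04e-04), and both tested regions of Etv4 were lower. Dusp6, the cytoplasmic ERK phosphatase, had 5 of 10 regions lower, all upstream of the gene at 20332 to 61568 bp. Its strongest went from 50.2, 56.2 and 58.1 at 0h over 29.0, 34.8 and 39.8 at 4h to 20.4, 25.5 and 14.6 at ERKi 4h (log2 -1.48, SE 0.23, adjusted p = 0.00203). Spry2 had 3 of 5 regions lower, Spred1 2 of 4 and Spred2 2 of 10, and these genes encode inhibitors of RAS and RAF signalling. Hbegf, an EGF receptor ligand gene, had 1 of 5 lower and Ier3 1 of 10. The 5 higher regions belonged to Dusp2, a nuclear phosphatase gene, with 2 of 2, and to Elk3, an ETS factor gene, with 3 of 8. The Dusp2 region went from 73.6, 93.5 and 94.5 to 176, 160 and 198 (log2 1.03, SE 0.16), and to -0.24 by fold enrichment. The Elk3 region went from 29.0, 32.3 and 33.4 to 55.9, 70.5 and 72.6 (log2 1.06, SE 0.21).

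Other genes with several lower regions included a further ERK-pathway inhibitor. Errfi1, which encodes an inhibitor of the EGF receptor, had 7 of 12 regions lower by 0.68 to 1.69 on the log2 scale. Its strongest had 54.3, 71.4 and 86.8 fragments at 0h, 39.8, 48.6 and 48.6 at 4h and 14.0, 30.7 and 23.2 at ERKi 4h. Tead1, the gene of a transcription factor of the Hippo pathway, had 5 of 13 lower. In the strongest, 73.6, 78.4 and 98.5 at 0h and 64.4, 87.8 and 106 at 4h stood against 34.8, 41.2 and 31.2 at ERKi 4h. All 4 tested regions of Muc5b, a secreted mucin gene, were lower, and the strongest went from 90.5, 85.5 and 120 to 23.2, 44.9 and 27.4. All 4 of Cyp4a12a, a fatty acid hydroxylase gene, were lower as well, and here the 4h libraries (42.3, 32.2 and 59.4) lay between 0h (72.3, 63.1 and 84.4) and ERKi 4h (13.0, 22.6 and 24.2) in the strongest region. None of these genes had a region that was higher.

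The effect of the inhibitor itself was measured by setting ERKi 4h against 4h, and it was mostly a lower H3K27ac, with a more even split under the block. Of 30314 regions 118 (0.389%) were lower and 4 (0.0132%) higher under ERKi 4h, and with the replicate block 1573 (5.19%) were lower and 861 (2.84%) higher. The 118 regions had medians of 77.9 fragments at 0h, 83.5 at 4h and 29.8 at ERKi 4h. Of the 118, 6 (5.08%) lay at promoters, and of the 1573 lower with the block 127 did. The 8 named genes or regions with the largest decreases ranged from -2.58 at Lrrk1 (SE 0.26, adjusted p = 0.00121) and -2.38 at Txnrd3 to -1.93 at Fzd5. The 2 regions of Etv4 were the 2 lower regions of the ERK list, at -2.10 for its promoter (SE 0.26, adjusted p = 0.00541), and the block called 33 regions of that list lower and 2 higher. Near 5033411D12Rik a region had 31.2, 36.2 and 46.1 fragments at 0h and 73.5, 69.8 and 80.1 at 4h. Under ERKi 4h it stood at 18.4, 17.7 and 16.4 (log2 -2.09 against 4h, SE 0.20). Near Fzd5, a Wnt receptor gene, 67.0, 106 and 132 at 0h and 90.9, 105 and 124 at 4h compared with 20.4, 30.7 and 34.2 at ERKi 4h. The Gm10495 decrease against 4h (-2.13, adjusted p = 0.0420) was not called with the block (adjusted p = 0.0735). Without a single library the count of 118 was 72 (0h replicate 1), 7 (4h replicate 1), 64 (4h replicate 2), 23 (4h replicate 3), 5 (ERKi 4h replicate 1), 77 (ERKi 4h replicate 2) and 49 (ERKi 4h replicate 3). By fold enrichment limma called 0 regions, with or without the block (720 lower and 728 higher at an unadjusted p below 0.05 without it), and by -log10 p 20 lower and 0 higher (1233 and 782 unadjusted), while the local background of all 118 was lower at ERKi 4h than at 4h (median log2 -0.97).

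The 4 regions that were higher under the inhibitor than at 4h followed different courses, and without 1 library their number was between 0 and 3. The promoter of Cyp1b1, a cytochrome P450 and known target of the aryl hydrocarbon receptor, had 44.9, 41.4 and 37.6 at 0h, 43.9, 51.0 and 43.1 at 4h and 102, 101 and 115 at ERKi 4h. It was thus raised over both (log2 1.20 against 4h, SE 0.19, adjusted p = 0.0195, and 1.36 against 0h), though by fold enrichment it was -0.11 against 4h. Near Cpeb4, a regulator of mRNA polyadenylation, a region had 175, 142 and 163 at 0h and 71.2, 65.3 and 86.8 at 4h, and ERKi 4h stood at 147, 168 and 167. That region differed by 0.01 between ERKi 4h and 0h and by 1.12 between ERKi 4h and 4h (SE 0.17, adjusted p = 0.0143). The regions near Lekr1 and at chr4:49191755-49193679, without a gene within 100 kb, differed by 1.06 and 1.14.

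The 24h libraries, whose levels played no part in calling these regions, gave the same comparison in other samples: cells with TGF-β for 24h and the inhibitor (ERKi 24h) against TGF-β for 24h with DMSO (24h), 3 libraries each. Of the 118 regions that were lower at ERKi 4h than at 4h, 103 held a peak in all 15 libraries, and all 103 had a lower mean at ERKi 24h than at 24h. The median difference was -1.20 and the range -2.79 to -0.20, compared with a median of 0.01 over all 26934 regions. A fit of all 15 libraries called 89 (86.4%) of the 103 lower and 0 higher, against 4.30% lower and 3.63% higher of all regions. Both of the regions with a peak in all 15 among the 4 higher ones, at Cyp1b1 and Cpeb4, were called higher at 24h (log2 1.70 and 2.05). The Cyp1b1 promoter had 43.4, 49.5 and 48.4 fragments at 24h and 146, 131 and 187 at ERKi 24h, normalised over the 15 libraries. The Atf7 region had 120, 126 and 124 at 24h and 27.5, 29.2 and 31.9 at ERKi 24h, and the Ros1 region 60.9, 68.8 and 115 against 16.9, 21.1 and 22.3. The Txnrd3 region did not pass at 24h (log2 -0.77, SE 0.33, adjusted p = 0.187), with 41.6, 49.5 and 73.3 fragments at 24h and 16.9, 42.6 and 41.8 at ERKi 24h. Of the 832 regions lower at ERKi 4h than at 0h, 588 held a peak in all 15, and 246 (41.8%) of these were lower and 6 (1.02%) higher at ERKi 24h than at 24h. Of the 1255 higher ones, 1202 did, and 138 (11.5%) were higher and 8 (0.666%) lower.

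**Figure D4:**
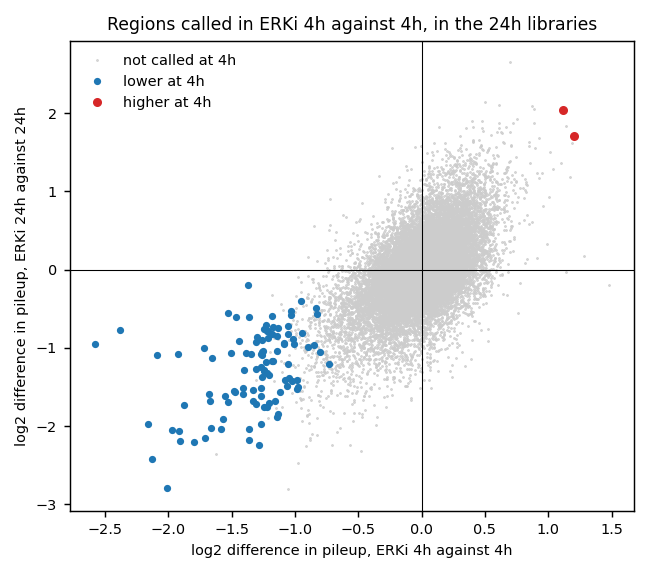
Log2 difference in pileup between ERKi 4h and 4h (horizontal axis) and, in separate libraries, between ERKi 24h and 24h (vertical axis), with each point 1 of the 26934 regions that held a peak in all 15 libraries. The 103 regions called lower at 4h (blue) all lie below 0 on the vertical axis, and the 2 called higher (red) lie above it.

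Junction and matrix genes had higher regions about as often as all regions did (4.14%). Of 126 regions of epithelial genes 4 (3.17%) were higher and 1 (0.794%) lower, and of 89 regions of mesenchymal, matrix and actin genes 3 (3.37%) were higher and 1 (1.12%) lower. With the block 22 (17.5%) and 12 (9.52%) of the first and 19 (21.3%) and 10 (11.2%) of the second were called, against 14.4% and 14.1% of all regions. Cdh1, which encodes E-cadherin, had a region 14107 bp upstream at 101, 106 and 159 at 0h, 92.5, 106 and 158 at 4h and 56.9, 65.6 and 70.5 at ERKi 4h (log2 -0.89 from 0h, SE 0.24, adjusted p = 0.0368). It was not lower than at 4h in the test without the block (adjusted p = 0.227) and was with it (adjusted p = 4.52e-06). Regions near the epithelial genes Pard3, Cldn4 and Grhl2, for a polarity protein, a claudin and a transcription factor, were higher by 1.77, 1.37 and 1.22. Among matrix and adhesion genes, an intronic region of Itgav, an integrin subunit, had 14.2, 16.4 and 15.0 at 0h, 58.3, 59.5 and 77.4 at 4h and 35.8, 25.5 and 48.0 at ERKi 4h. It rose by 1.22 with the inhibitor and by 2.09 without, and the difference of -0.87 between them was called only with the block (adjusted p = 0.225 without and 0.00138 with it). Cdh2, the gene of N-cadherin, had an intronic region that rose by 1.10 (SE 0.19), and an intronic region of the laminin gene Lamb1 rose by 0.99, with a difference of -0.05 in fold enrichment. A region of Itga2, a collagen-binding integrin subunit, fell from 22.5, 29.7 and 39.8 to 14.0, 15.4 and 16.4 (log2 -0.97, SE 0.23, adjusted p = 0.0206), while 4h stood at 30.7, 23.2 and 28.7.

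Without the block the other lists were close to the background (4.14% higher and 2.74% lower) or below it. The higher and lower shares were 2.04% and 0% (Id and BMP), 1.41% and 0% (receptor tyrosine kinases) and 2.67% each (cytokines). With the block they were 12.2% and 10.2%, 19.7% and 8.45%, and 10.7% and 17.3%, in the same order. Of all regions, 14.4% were higher and 14.1% lower with the block. Of 49 regions of Id and BMP genes 1 was higher, the promoter of the receptor gene Bmpr2 (log2 0.52, SE 0.12, adjusted p = 0.0192), and 0 were lower (limma, 3 at an unadjusted p below 0.05). Id2 and Atoh8, both helix-loop-helix genes, and the homeobox gene Msx1 had differences of -0.55, 0.52 and 0.57 that passed only with the block (adjusted p of 1.16e-04, 0.0164 and 0.00600). Of 71 regions of receptor tyrosine kinases 1 was higher, in the collagen receptor gene Ddr1 (log2 0.88, adjusted p = 0.00815), and 0 were lower (limma, 3 unadjusted). The regions of Igf1r, Fgfr3 and Erbb3 with the lowest p were at -0.74, -0.63 and 0.48 and passed only with the block (adjusted p of 7.06e-04, 0.00177 and 0.00126), and that of Fgfr3 was at 0.15 by fold enrichment. Of 75 regions of cytokine genes 2 were higher and 2 lower, or 8 and 13 with the block. Both higher regions were those of Jak2, the kinase of cytokine receptors, and the strongest had 364, 309 and 251 fragments at 0h, 622, 620 and 688 at 4h and 522, 541 and 535 at ERKi 4h (log2 0.81, SE 0.13, adjusted p = 0.00228), or -0.10 by fold enrichment. The lower ones were near the chemokine genes Cxcl5, from 86.8, 67.9 and 95.5 to 19.4, 25.5 and 20.4 (log2 -1.93, SE 0.23), and Cx3cl1, from 40.6, 42.5 and 35.6 to 17.5, 25.5 and 15.4 (log2 -1.06, SE 0.23). A region near Ccl20 was at -0.86 and passed only with the block (adjusted p = 0.0781 without and 3.75e-04 with it). The study names 14 genes for an ERK-dependent change of H3K27ac during EMT, which sets inhibited cells against DMSO cells. The counts given first set ERKi 4h against 0h, a different comparison. Of these 14 genes, 10 had 0 regions past the threshold, namely Wnt4, Shroom3, Id3, Cldn9, Cmtm8, Hmga2, Nid2, Il11, Jag1 and Itgb3. Their regions of lowest p ranged from -0.75 at Wnt4 and -0.68 at Shroom3 to 0.58 at Cmtm8. The block called the Wnt4, Shroom3, Cmtm8 and Cldn9 regions (adjusted p of 1.39e-06, 1.19e-05, 0.00648 and 0.0262). Of all 12247 genes with a tested region, 842 had a higher and 509 a lower region without the block. Inhibited against DMSO cells at 4h, the block called 3 regions of Jak2, 2 of Itga2 and 1 of Lamb1 lower. It called 2 regions of Shroom3 higher and 1 of Wnt4 each way. Of all regions it called 5.19% lower and 2.84% higher.

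Sequence motifs were counted around the summits of the 18421 tested regions outside promoters, as described for the sequences above, on both strands. Within 100 bp of the summit the AP-1 motif TGANTCA was found in 6.02% of all these regions, 5.95% of the 1143 higher and 6.36% of the 771 lower ones. Within 500 bp it was found in 49.5% of all, 61.6% of the higher and 50.7% of the lower regions, and in 60.7% of the 112 lower than at 4h. The share was largest at 200 to 300 bp from the summit, with 17.9% of all and 24.7% of the higher regions. The SMAD palindrome GTCTAGAC was found within 500 bp in 1.16% of all, 3.41% of the higher and 0.519% of the lower regions, and GGCGCC in 7.52%, 4.55% and 4.28%. The ETS motif CCGGAAG was found in 6.52% of all, 3.15% of the higher and 6.74% of the lower regions. Shares for the RUNX motif TGTGGT were 57.7%, 61.3% and 60.3%, and for the TEAD motif GGAATG 52.3%, 50.7% and 53.4%. The remaining motifs were at 51.5%, 56.5% and 50.2% (E-box CAGGTG), 17.8%, 17.4% and 18.4% (forkhead TGTTTAC) and 7.48%, 7.26% and 8.69% (GRHL, AACCNGTT or AACNGGTT). GC content within 100 bp was 49.7% in all, 49.3% in the higher and 47.4% in the lower regions. These are descriptions of the windows without a test, and a match is not a bound site.

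**Figure D5:**
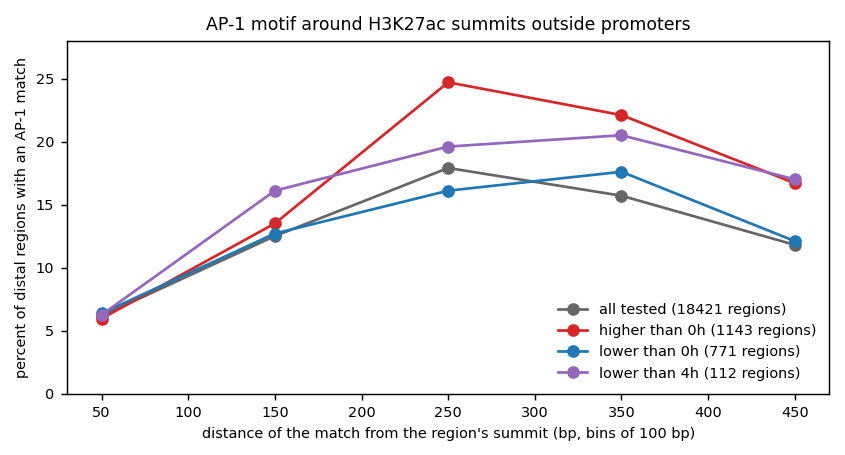
The percent of regions outside promoters with a match to TGANTCA (vertical axis) by distance from the summit in bins of 100 bp (horizontal axis), for all tested regions and for those called higher or lower. At 200 to 300 bp the regions higher than 0h reach 24.7% and all tested regions 17.9%, whereas within 100 bp the lines meet near 6%.

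Peaks called in one group and not in the other gave a second, cruder view. Of the 63439 regions with a peak in any of the 6 libraries, 1198 (1.89%) were called in every ERKi 4h and no 0h library, and 578 (0.911%) in every 0h and no ERKi 4h library. They were weak, with median pileups of 23.5 and 22.0 fragments. Of the 1198, 623 were called in all 3 libraries of 4h and 68 in none, and of the 578, 137 were called in all 3 and 128 in none. The 5 highest-ranked gained regions included 2 in Pmepa1 introns, with pileups of 254, 186 and 246 and of 215, 152 and 200, and 2 near Zfp36l2, an mRNA decay factor gene. The fifth lay in an intron of Bmf, a pro-apoptotic BCL2-family gene, at 187, 135 and 191 fragments, and was called in 1 of 3 libraries at 4h, 0 at 24h and 3 at ERKi 24h. The 5 highest-ranked lost regions lay near D15Ertd621e, Afmid, Ifne, Rbfox2 and Fmnl3, and those of D15Ertd621e, Rbfox2 and Fmnl3 were called in 0 libraries of ERKi 24h. Such strong summits stood only 1.52 to 2.76 times above a local background of 36.3 to 158 fragments, so that the call there turned on the background as well as on the pileup. The gained count was 2484 without ERKi 4h replicate 2, and the lost count 974, 1390, 892 and 1146 without 0h replicate 1, 0h replicate 2, ERKi 4h replicate 2 and ERKi 4h replicate 3.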

How the data were processed

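H3K27ac ChIP-seq peak lists of 15 libraries (3 each of 0h, 4h, 24h, ERKi 4h and ERKi 24h) were used, and libraries were grouped by their labels. Reads had been mapped by the authors to mm9 (bowtie) and peaks called per library (MACS2, default settings); the control used in peak calling is not given in the sources used here. In the deposited lists the fold enrichment is the ratio of summit pileup to local background, and the p and q values are -log10 p and -log10 q; summit offsets are in bp. The 1 of 15 lists whose library number in the peak names is out of order, ERKi 4h replicate 1, was left out in an alternative like every other library.

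The pileup was solved as the whole number that gives the deposited fold and -log10 p, within 0.005 of -log10 p for all but 13 of 517138 peaks in 9 libraries. Overlapping peaks of the 15 lists were merged, and a region took its highest pileup in each library. Regions with a peak in all 9 libraries of 0h, 4h and ERKi 4h were fitted on log2 pileup by limma 3.58.1 (R 4.3.3) with quantile normalisation, a trended and robust prior, and Benjamini-Hochberg adjustment over all regions tested, with a threshold of 0.05. The 3 comparisons share libraries: 0h is in 2 of them, as are 4h and ERKi 4h. Standard errors are those of limma. A region belongs to the protein-coding gene (GENCODE vM1, NCBIM37) with the nearest start site within 100 kb, and enhancers may act on other genes. Libraries with the same replicate number deviated together from their group means in every pair of groups (r of 0.437 to 0.770 in 9 pairs, across regions), so the number was taken to pair the libraries and the fit with it as a block is given where it moves a count.

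Named regions are the 8 largest called differences in each direction in ERKi 4h against 0h, 1 per gene, and in ERKi 4h against 4h, the 4 genes of each list with the lowest p, the 5 genes with most called regions each way, the 5 gained and lost regions of highest rank, and genes the study names for H3K27ac. Members and lists were chosen with earlier results of these data known. One listed gene, Ldlrad4, was not matched by symbol. The scripts were tested on simulated data. Peaks hold no read totals, and 3 libraries per group set the precision.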

Additional observations from a re-analysis of the deposited data

Results flagged for a closer look

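These counts were picked out because the change from 0h to 4h differed between cells with the inhibitor and cells with DMSO in a test of that difference itself, ERKi 4h against 4h. It was lower under ERKi in 118 regions and higher in 4 (limma, adjusted p below 0.05, 30314 regions, 3 libraries per group). The largest were -2.58 on the log2 scale near Lrrk1 and 1.20 at the Cyp1b1 promoter. In both, all 3 libraries of ERKi 4h lay on the same side of the 3 libraries of 4h, which the choice of the largest differences makes likely. Groups of 3 libraries are too small for a check of single libraries that stand apart.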

How the results depend on the processing

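Median scaling, a mean pileup of at least 30, 15 libraries, chromosomes 1 to 19 and X, regions merged from 9 libraries and, for this comparison alone, the 6 libraries left the counts of ERKi 4h against 0h (1255 higher, 832 lower) within 1.5 times. The first 5 did so for the other comparisons too, except that 108 regions were lower at 4h than at 0h with 15 libraries, and that ERKi 4h exceeded 4h in 2 regions under median scaling. The replicate block gave 4351 higher and 4282 lower (ERKi 4h against 0h), 3845 higher and 3107 lower (4h against 0h) and 861 higher and 1573 lower (ERKi 4h against 4h). Fold enrichment in place of pileup gave 35 higher and 26 lower (ERKi 4h against 0h), 19 higher and 8 lower (4h against 0h) and 0 higher and 0 lower (ERKi 4h against 4h). The use of -log10 p gave 579 higher and 316 lower (ERKi 4h against 0h), 502 higher and 63 lower (4h against 0h) and 0 higher and 20 lower (ERKi 4h against 4h). A threshold of 0.1 gave 1858 higher and 1323 lower (ERKi 4h against 0h), 1575 higher and 499 lower (4h against 0h) and 13 higher and 176 lower (ERKi 4h against 4h). Further fits with the block were chosen after seeing the data. With fold enrichment they gave 260 higher and 250 lower (ERKi 4h against 0h), 125 higher and 94 lower (4h against 0h) and 0 higher and 0 lower (ERKi 4h against 4h). With 15 libraries they gave 3437 higher and 3025 lower (ERKi 4h against 0h), 3042 higher and 1821 lower (4h against 0h) and 393 higher and 1104 lower (ERKi 4h against 4h). With median scaling they gave 4301 higher and 4834 lower (ERKi 4h against 0h), 3834 higher and 3416 lower (4h against 0h) and 824 higher and 1603 lower (ERKi 4h against 4h). Without the libraries numbered 1 the block gave 3249 higher and 2884 lower (ERKi 4h against 0h), 2558 higher and 1431 lower (4h against 0h) and 292 higher and 705 lower (ERKi 4h against 4h). Without those numbered 2 it gave 4064 higher and 3914 lower (ERKi 4h against 0h), 3690 higher and 2678 lower (4h against 0h) and 641 higher and 1389 lower (ERKi 4h against 4h). Without those numbered 3 it gave 2677 higher and 2350 lower (ERKi 4h against 0h), 2465 higher and 1531 lower (4h against 0h) and 227 higher and 720 lower (ERKi 4h against 4h). Leaving out single libraries gave 601 to 1382 higher and 269 to 918 lower (ERKi 4h against 0h), 462 to 1264 and 42 to 303 (4h against 0h), and 0 to 3 and 5 to 102 (ERKi 4h against 4h). These fits have fewer libraries, and the causes of the other differences were not tested.

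The 1198 gained and 578 lost peak calls became 535 and 516 (-log10 q of at least 10), 391 and 412 (20000 peaks per list), 766 and 796 (a peak over at least 0.5 of the region), 843 and 358 (regions merged within 1000 bp), and 1353 to 2484 and 692 to 1390 without single libraries. Of the 76 named regions, fold enrichment changed the sign of 12 and ended the call of 46, and with fold enrichment the block gave the same 12 differences: 0.04 (Ros1), -0.05 (Lamb1), -0.12 (Sox4), 0.38 (Gm10495), -0.11 (Cyp1b1), -0.10 (Jak2), -0.21 (Itgb6), -0.24 (Dusp2), -0.24 (Snai1), -0.11 (Tgfbr1), 0.15 (Fgfr3), 0.02 (Shroom3). Nid2, which was not called, ranged from -0.19 (without 0h replicate 2) to 0.00 (without 0h replicate 3) without a single library and was 0.03 with the block without replicate 1. Of the 1635 values of named regions under all other alternatives, 1489 kept their side of the threshold, 80 lost the call and 64 gained it. A call was lost without a single library at 15 regions, those of Atf3, Bmpr2, Cdh1, Cx3cl1, Gm10495, Itga2, Lamb1 and Rreb1 against 0h and those of Etv4, Fzd5, Cyp1b1, Cpeb4, Lekr1 and the regions on chromosome 4 without a near gene against 4h. The block ended no call of these regions in the comparison that named them and added 11. A motif window of 500 bp, chosen after seeing the data, turned the difference in share from that of all regions, in percentage points, to 12.1 (AP-1, higher regions), 0.220 (ETS, lower regions), -1.60 (TEAD, higher regions), 1.10 (TEAD, lower regions), 3.60 (RUNX, higher regions), 2.60 (RUNX, lower regions).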

Other observations

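Further values came from the 24h libraries. The intergenic region at chr4:89151556-89152779, with no protein-coding start site within 100 kb, had 137, 130 and 158 fragments at 24h and 30.6, 35.9 and 36.4 at ERKi 24h (log2 -2.04, SE 0.22), after 90.9, 117 and 133 at 4h and 28.3, 29.4 and 28.4 at ERKi 4h. The Cpeb4 region, at 175, 142 and 163 fragments at 0h, had 29.3, 38.6 and 22.5 at 24h and 94.8, 130 and 145 at ERKi 24h. The promoter of Erbb3, a receptor tyrosine kinase gene, had 60.2, 94.8 and 65.8 at 24h and 114, 134 and 144 at ERKi 24h (log2 0.85, SE 0.18, adjusted p = 0.00862). The 24h values are normalised over 15 libraries and the 4h values over 9.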
